A study of Mus musculus with 9 samples.

Results

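De novo lipogenesis is the making of fatty acids from carbohydrate, and 10 genes of this pathway are described here in the mouse liver 48 hours after an agonist CD40 antibody. They are Acly, Acaca, Acacb, Fasn, Me1, Scd1, Elovl6, Elovl5, Gpam, and Thrsp. The genes were taken by name from a list of fatty acid synthesis genes, drawn up with earlier results of these data known, and they make up 10 of the 24326 genes with a usable value in every mouse. All 10 had an adjusted p under 0.05 (limma) and were lower after anti-CD40, with falls from 1.61-fold for Elovl5 to 36.5-fold for Thrsp. Over all 13807 genes tested, 21.7% were lower at that threshold. The call of Elovl5 was marginal (limma adjusted p = 0.0471), with groups that overlapped.

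The libraries came from bulk liver of wild-type C57BL/6 mice. There were 3 mice given the CD40 agonist FGK45 (mice 2, 5, and 9, called anti-CD40 below) and 6 control mice (mice 3, 4, 7, 8, 11, and 12), whose labels name PBS, and all were collected at 48 hours. The labels give neither the age, the sex, nor the feeding state of these mice, and the study's methods describe its mice in general as sex-matched young adults. According to the study's methods, animals in which anti-CD40 did not lower blood B cells were left out of its analyses, so the treated group may be a selected one. Each transcript was read from its 3′ end, and the deposited values are FPKM, read fragments scaled to transcript length and to the mapped reads of the library. Division by length leaves levels of different genes not comparable in 3′ data. Each gene was therefore tested only against itself between mice or as a ratio within a mouse. Summed levels of several genes are given as a description only, since division by length weighs their genes unequally. Read totals are not in the table, and depth is therefore unknown. The table had a value above its floor of 0.01 FPKM for 15385 to 15545 genes in the anti-CD40 mice and for 14684 to 15397 in the control mice. All 10 lipogenic genes were above the floor in all 9 mice.

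In this pathway, citrate exported from mitochondria is split to acetyl-CoA, which is carboxylated to malonyl-CoA and built into palmitate at the expense of NADPH. Elongases and desaturases then lengthen and desaturate the product, and acyltransferases place it on glycerol for triglyceride. In liver the genes are known to be driven by insulin and glucose through the transcription factors SREBP-1c and ChREBP, together with the nuclear receptor LXR, and NF-Y, Sp1, and USF are known to act with them at many of the promoters.

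The sequences before the start sites of Thrsp, Fasn, and Elovl5 are shown because these genes stand for the largest fall, the central enzyme, and the smallest fall of the group. Each is the 250 bases before a start site from RefSeq on GRCm38.p6, 5′ to 3′ on the strand of the gene. Capitals mark matches on either strand to CCAAT, the NF-Y box, or to CACGTG, the E-box that USF and ChREBP can bind. Thrsp is at chr7:97417551-97417800 on the minus strand, Fasn at chr11:120824548-120824797 on the minus strand, and Elovl5 at chr9:77917115-77917364 on the plus strand.
Thrsp: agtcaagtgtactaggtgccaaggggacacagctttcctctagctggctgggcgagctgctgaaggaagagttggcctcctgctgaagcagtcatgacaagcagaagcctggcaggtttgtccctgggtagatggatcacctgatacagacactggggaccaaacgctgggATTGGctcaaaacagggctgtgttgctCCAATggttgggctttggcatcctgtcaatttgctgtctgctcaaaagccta
Fasn: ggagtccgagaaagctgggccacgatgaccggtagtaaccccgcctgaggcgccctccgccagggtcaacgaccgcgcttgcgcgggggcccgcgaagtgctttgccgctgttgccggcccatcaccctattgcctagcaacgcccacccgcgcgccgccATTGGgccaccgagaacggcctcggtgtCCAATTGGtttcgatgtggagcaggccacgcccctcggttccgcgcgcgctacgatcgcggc
Elovl5: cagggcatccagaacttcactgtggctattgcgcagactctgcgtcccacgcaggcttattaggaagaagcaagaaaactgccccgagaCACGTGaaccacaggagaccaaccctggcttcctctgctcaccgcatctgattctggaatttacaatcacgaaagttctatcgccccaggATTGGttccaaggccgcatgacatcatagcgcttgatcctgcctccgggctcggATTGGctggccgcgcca
In Thrsp the NF-Y box matches began 79 and 52 bases before the start. In Fasn they began 90, 62, and 59 bases before it, and the last of these overlaps the one before. Elovl5 had NF-Y box matches at 71 and 17 bases and the E-box match at 161 bases before the start. Of the 10 genes, 9 had a window in the RefSeq set (250 bases before to 50 after the start). The NF-Y box was found in 7 of these 9 genes and in 7 of their 11 windows, and in 37.4% of all 32851 windows. In Acly its only match began 37 bases after the start, and Me1 and Gpam each had another window without it. The E-box was found in Elovl5 and in 7.15% of all windows, and GGGCGG, the GC box of Sp1, in Acly, Me1, and Gpam and in 35.7% of all windows. TCACNCCAC, a core of the sterol regulatory element to which SREBP binds, was found in 0 of the 9 genes and in 1.24% of all windows. Some genes have more than 1 window, which raises their share, and these matches describe letters in the windows and were not tested for binding.

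Comparisons between the groups were made on log2(FPKM + 0.1), a scale that understates the change of low genes such as Gpam and Acacb. limma, which borrows the variance of all genes for each one, was fitted to the 13807 genes with a mean of at least 0.1 FPKM, and p was adjusted over all of them. A 2-sided exact permutation test over the 84 ways to divide the 9 mice into 3 and 6 was also made for each gene, and its smallest possible p is 0.0238. Among all genes tested, 21.7% were lower at an adjusted p under 0.05 and 23.5% were higher, whereas 10 of the 10 lipogenic genes were lower. At least a 2-fold fall together with an adjusted p under 0.05 was found for 8 of the 10, against 9.08% of all genes, with Elovl5 and Gpam short of it. In 9 of the 10, every anti-CD40 mouse was below every control mouse, which was the case in 19.6% of all genes, and Elovl5 was the exception. The exact permutation p was 0.0238 for each of these 9. The median log2 fold change was -1.55 for the 10 genes and 0.0056 for all genes tested. The plot of FPKM by mouse shows these values.

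**Figure D1:**
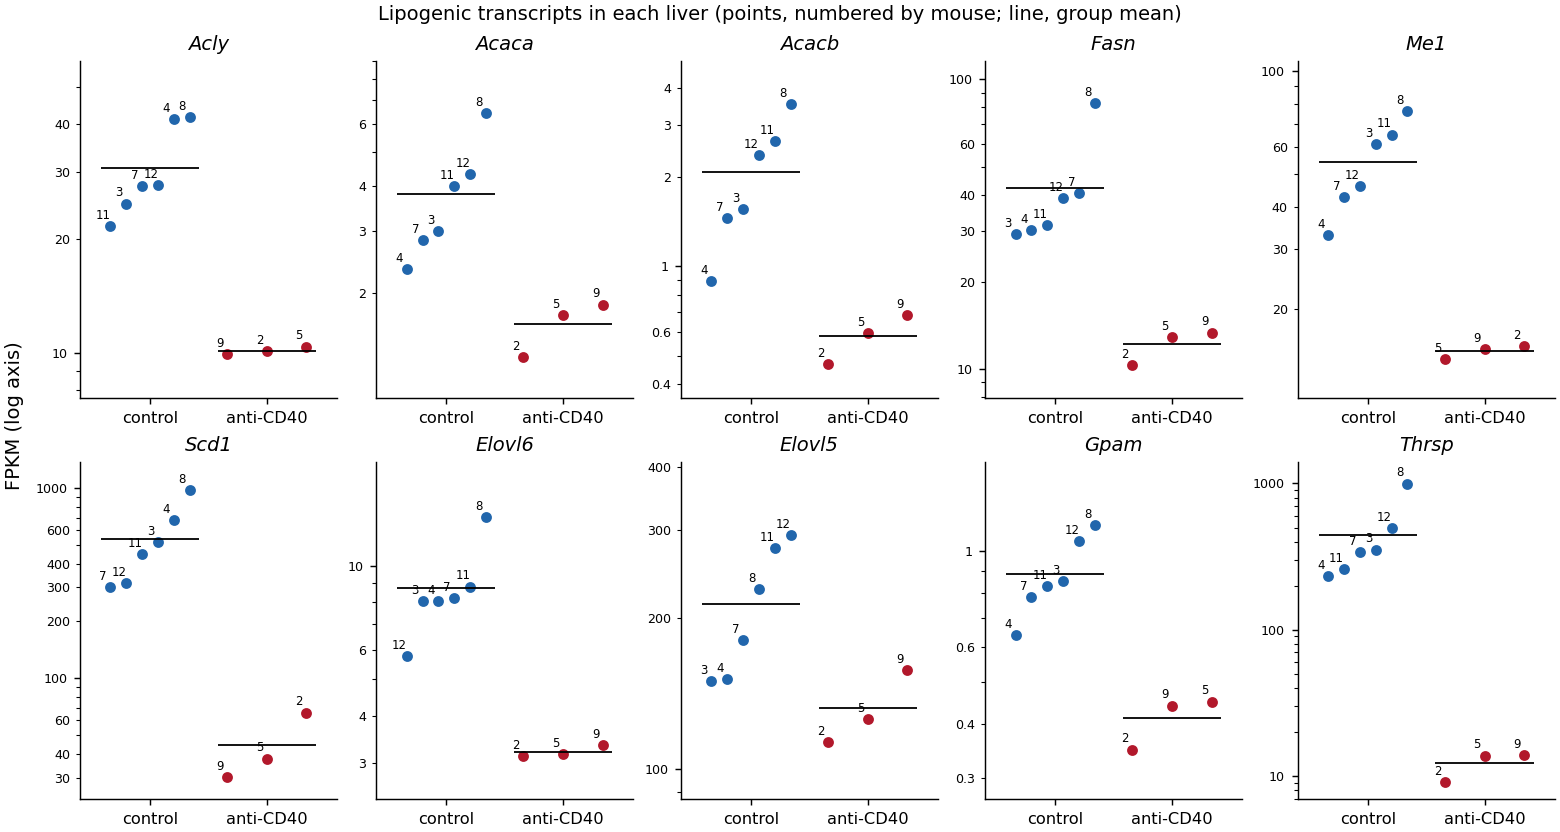
FPKM on a log axis for each of the 10 genes in the 6 control livers (blue) and the 3 anti-CD40 livers (red); points are numbered by mouse and the line is the group mean. The groups are apart in 9 of the 10 genes and overlap in Elovl5, and control mouse 8 is the highest point in 9 of them.

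The first steps of the pathway were lower in every treated liver. ATP citrate lyase, encoded by Acly, makes cytosolic acetyl-CoA from citrate. In treated mice 2, 5, and 9 it was at 10.1, 10.4, and 9.93 FPKM, and the controls ran from 21.6 to 41.8 with a median of 27.6. The lowest control liver was thus 2.07 times the highest treated one. The mean was 10.2 ± 0.243 (SD, n = 3) against 30.8 ± 8.60 (SD, n = 6), a log2 fold change of -1.54 (SE 0.21, 95% interval -2.01 to -1.08, limma adjusted p = 1.95e-04). The position of Acly in the table (chr11:100476352-100528000, mm10) is shared with the microRNA gene Mir7116. How reads were divided between the 2 genes is not known.

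Acetyl-CoA carboxylase makes malonyl-CoA and has a cytosolic form, encoded by Acaca, and a form at the mitochondrial surface, encoded by Acacb, whose product restrains the entry of fatty acids for oxidation. Acaca (chr11:84195438-84401651) was at 1.32, 1.74, and 1.86 FPKM in treated mice 2, 5, and 9, and the controls lay between 2.34 and 6.43 with a median of 3.49. Acacb (chr5:114165518-114250758) was at 0.468, 0.596, and 0.683 in the treated mice, and the controls lay between 0.894 and 3.52 with a median of 1.96. For both genes the lowest control liver was mouse 4 and lay close to the treated range, at 1.26 times the highest treated liver for Acaca and 1.31 times for Acacb. The log2 fold change was -1.11 for Acaca (SE 0.28, 95% interval -1.73 to -0.48, limma adjusted p = 0.00889). That of Acacb was -1.56 (SE 0.36, 95% interval -2.36 to -0.76, limma adjusted p = 0.00500). Within each liver the log2 ratio of Acacb to Acaca was -1.35 ± 0.0469 (SD, n = 3) after anti-CD40 and -0.89 ± 0.231 (SD, n = 6) in controls. The groups were only narrowly apart, with the highest treated liver at -1.32 and the lowest control at -1.30. The exact permutation p was 0.0238, and 0.0387 after Benjamini-Hochberg adjustment over the 13 ratios examined. These ratios were chosen after the values had been seen.

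Fatty acid synthase, encoded by Fasn (chr11:120805958-120824547), builds palmitate from acetyl-CoA and malonyl-CoA. In treated mice 2, 5, and 9 it was at 10.3, 12.9, and 13.4 FPKM, and the controls ran from 29.2 to 82.5 with a median of 35.1. The treated mean was 29.0% of the control mean, and the highest control liver, mouse 8, was well apart from the next at 40.5. The mean was 12.2 ± 1.62 (SD, n = 3) against 42.1 ± 20.4 (SD, n = 6), a log2 fold change of -1.68 (SE 0.30, 95% interval -2.34 to -1.02, limma adjusted p = 0.00102). Without control mouse 8 or any other single mouse the log2 fold change was between -1.77 and -1.47 and kept its call.

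Malic enzyme, encoded by Me1, supplies cytosolic NADPH. In treated mice 2, 5, and 9 it was at 15.6, 14.3, and 15.3 FPKM, and the controls ran from 33.0 to 76.3 with a median of 53.4. The 3 treated livers differed from each other by a factor of 1.09 and the 6 controls by a factor of 2.31. Such a factor tends to grow with the number of mice. The mean was 15.1 ± 0.693 (SD, n = 3) against 54.0 ± 16.1 (SD, n = 6), a log2 fold change of -1.78 (SE 0.24, 95% interval -2.30 to -1.25, limma adjusted p = 1.69e-04). Its position (chr9:86581363-86701253) is shared in the table with A330041J22Rik, and how reads were divided between them is not known.

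The changes in desaturation and elongation were unequal. Stearoyl-CoA desaturase, encoded by Scd1 (chr19:44394450-44407709), makes monounsaturated fatty acids. In treated mice 2, 5, and 9 it was at 65.8, 37.8, and 30.1 FPKM, and the controls ran from 302 to 978 with a median of 484. The lowest control liver was 4.58 times the highest treated one, which was mouse 2. The mean was 44.6 ± 18.8 (SD, n = 3) against 541 ± 255 (SD, n = 6), a 12.1-fold fall. The log2 fold change was -3.55 (SE 0.38, 95% interval -4.39 to -2.71, limma adjusted p = 3.79e-05), the 50th largest fall among the 13807 genes tested.

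Elovl6 (chr3:129532386-129638493) encodes the elongase that takes palmitate to stearate, and Elovl5 (chr9:77917365-77984519) one that acts mainly on polyunsaturated fatty acids. Elovl6 was at 3.13, 3.16, and 3.34 FPKM in treated mice 2, 5, and 9, and the controls lay between 5.76 and 13.5 with a median of 8.14, and no values overlapped. The log2 fold change of Elovl6 was -1.37 (SE 0.21, 95% interval -1.84 to -0.90, limma adjusted p = 4.62e-04). Elovl5 was at 113, 126, and 158 in the treated mice, and the controls lay between 150 and 292 with a median of 204. Treated mouse 9 was above control mice 3 and 4, so the groups overlapped. Elovl5 had a log2 fold change of -0.65 (SE 0.24, 95% interval -1.18 to -0.12), with an adjusted p of 0.0471 from limma and an exact permutation p of 0.0714. Its call was the least stable of the group: it was lost in 13 of 22 other settings, among them the omission of any 1 anti-CD40 mouse (adjusted p up to 0.170) or of control mouse 7, 8, 11, or 12. Although the fall of Elovl6 was larger in value, the log2 ratio of Elovl6 to Elovl5 differed between the groups by -0.72 with overlap (exact permutation p = 0.119, adjusted p = 0.172).

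Downstream of synthesis, Gpam (chr19:55069734-55099447) encodes the mitochondrial glycerol-3-phosphate acyltransferase that starts glycerolipid assembly. It was at 0.348, 0.450, and 0.440 FPKM in treated mice 2, 5, and 9, and the controls lay between 0.641 and 1.15 with a median of 0.842. These low values did not overlap. The log2 fold change was -0.93 (SE 0.19, 95% interval -1.36 to -0.50, limma adjusted p = 0.00284), and it was between -1.32 and -0.41 over the other settings, the first with quantile normalization and the second with a pseudocount of 1. Acacb, also low, was at -0.90 with that pseudocount. The fall in the means themselves was 2.15-fold.

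Thrsp (chr7:97412957-97417510) encodes the thyroid hormone responsive protein Spot 14, a small regulator of lipogenesis with no known enzymatic activity. In treated mice 2, 5, and 9 it was at 9.06, 13.8, and 13.9 FPKM, and the controls ran from 233 to 999 with a median of 346. The lowest control liver was 16.8 times the highest treated one, although the controls themselves differed by a factor of 4.28. The mean was 12.3 ± 2.77 (SD, n = 3) against 447 ± 286 (SD, n = 6), which leaves 2.74% of the control mean. The log2 fold change was -5.02 (SE 0.40, 95% interval -5.90 to -4.13, limma adjusted p = 6.43e-06), the 17th largest fall among all genes tested. Its paralog Mid1ip1, which encodes a partner of Spot 14 that promotes the assembly of acetyl-CoA carboxylase into filaments, fell less, from a control mean of 24.8 ± 6.10 (SD, n = 6) to 7.66 ± 0.709 after treatment (SD, n = 3), with a log2 fold change of -1.64 (limma adjusted p = 2.93e-04). The log2 ratio of Thrsp to Mid1ip1 differed by -3.38 between the groups, without overlap (exact permutation p = 0.0238, adjusted p = 0.0387).

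**Figure D2:**
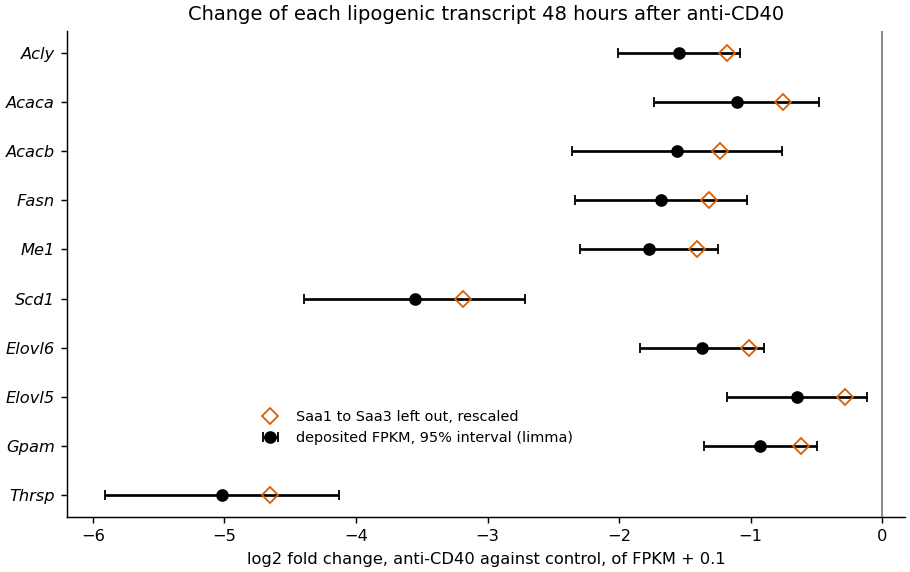
Log2 fold change of each gene on the FPKM + 0.1 scale, anti-CD40 against control, with its 95% interval from limma (black), and the value with the 3 serum amyloid genes removed and the rest rescaled (open diamonds). Thrsp at -5.02 and Scd1 at -3.55 lie far to the left of the other 8 genes, and every diamond lies to the right of its black point, that of Elovl5 at -0.28.

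The serum amyloid genes Saa1, Saa2, and Saa3 held 25.4% to 25.9% of the summed FPKM in the treated livers and 0.0449% to 0.380% in the controls, so a scaling without them was examined. It moved the median of all genes tested by 0.344 on the log2 scale. On that scale the lipogenic genes were at -4.65 for Thrsp, -3.19 for Scd1, -1.41 for Me1, -1.32 for Fasn, -1.23 for Acacb, -1.18 for Acly, -1.01 for Elovl6, -0.76 for Acaca, and -0.62 for Gpam, and all 9 kept an adjusted p under 0.05. Elovl5 was at -0.28 (limma adjusted p = 0.307). Of the 13852 genes tested with this scaling, 1647 were lower and 5633 higher.

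The genes did not fall by equal amounts. Each was set against Fasn within the same liver, on the same log2(FPKM + 0.1) scale. The log2 ratio to Fasn was lower in every treated liver than in every control for Thrsp, with a mean of -0.011 ± 0.155 (SD, n = 3) against 3.32 ± 0.331 (SD, n = 6), and for Scd1, with 1.79 ± 0.776 (SD, n = 3) against 3.66 ± 0.626 (SD, n = 6). It was higher in every treated liver for Elovl5 by 1.03, for Gpam by 0.75, and for Acaca by 0.58. For Acaca the groups were only narrowly apart, with the lowest treated liver at -2.88 and the highest control at -2.94. The scale understates the fall of Gpam, which enlarges its difference from Fasn. The exact permutation p was 0.0238 and the adjusted p 0.0387 for each of these 5 ratios. The ratios of Elovl6, Acly, Acacb, and Me1 to Fasn overlapped between the groups, with differences of 0.31, 0.14, 0.12, and -0.094 (exact permutation p = 0.286, 0.619, 0.714, and 0.762).

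**Figure D3:**
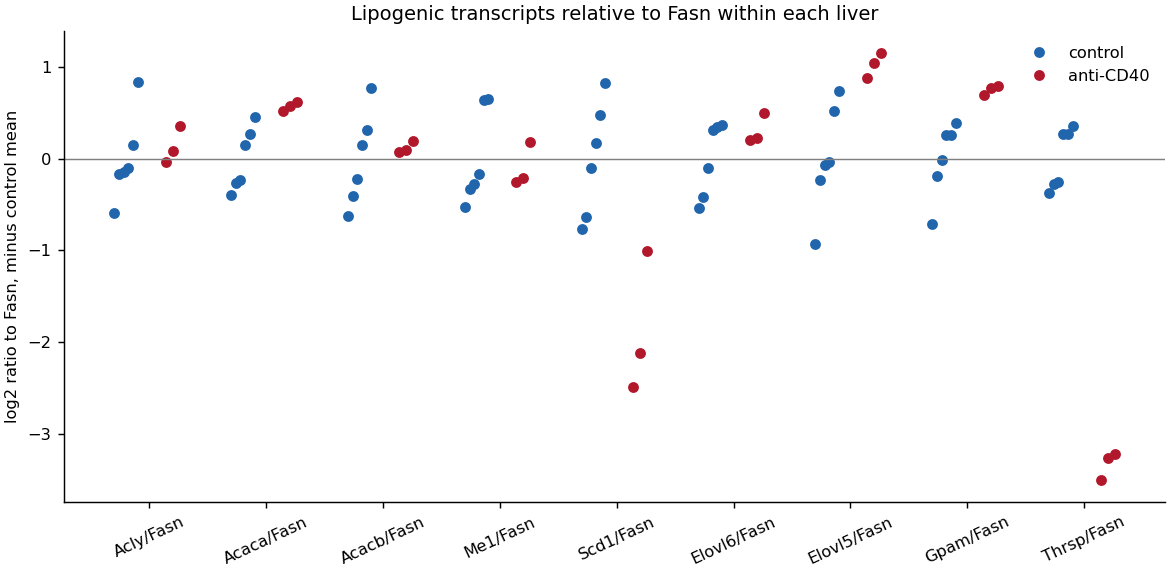
Log2 ratio of each gene to Fasn within each liver, shown relative to the mean ratio of the control livers (blue, 6 control mice; red, 3 anti-CD40 mice). The red points of Thrsp and Scd1 lie below all blue points and those of Acaca, Elovl5, and Gpam above them, whereas the points of Acly, Acacb, Me1, and Elovl6 overlap.

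The livers also differed within each group. Control mouse 8 had the highest control value in 9 of the 10 genes, with mouse 12 highest in Elovl5, and over the 10 genes its log2 values averaged 0.73 above the control mean. Control mouse 4 was lowest in 5 genes and averaged -0.34. It was nonetheless the second highest control in Acly and Scd1. The treated livers averaged -2.01, -1.89, and -1.85 in mice 2, 5, and 9, and mouse 2 was the lowest of them in 7 genes. Their range was narrower than that of the controls, but a range tends to widen with more mice. After mouse 8, the next highest control average was 0.018 in mouse 12. The coefficient of variation among controls was 63.9% for Thrsp, 48.4% for Fasn, 47.2% for Scd1, and 20.9% for Gpam. Among the treated livers it was 2.40% for Acly and 42.2% for Scd1, the lowest and the highest of the 10. The summed FPKM of the 10 genes, most of which comes from Scd1, Thrsp, and Elovl5, was 221 to 247 in the treated livers and 947 to 2430 in the controls.

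**Figure D4:**
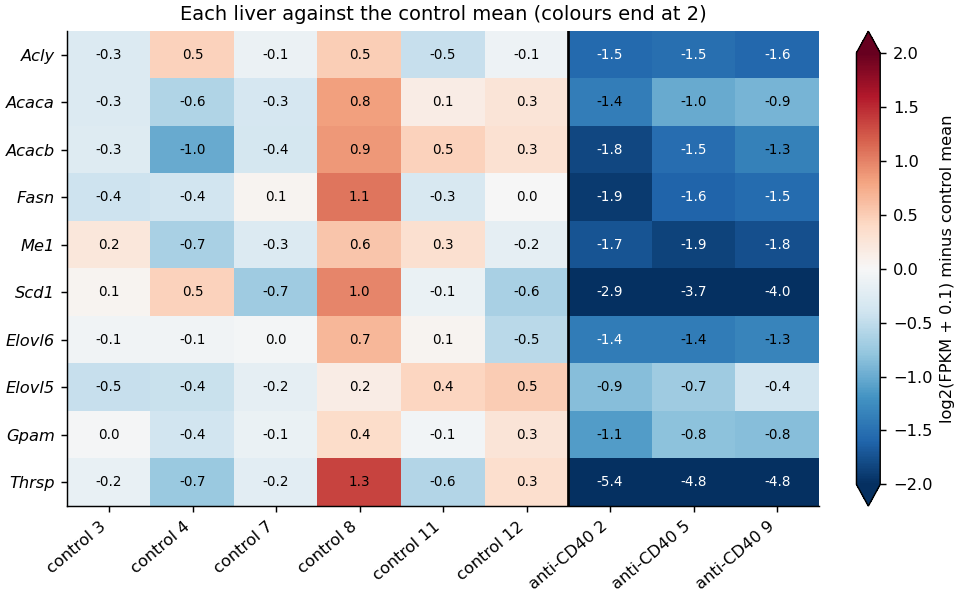
Log2(FPKM + 0.1) of each gene in each liver minus the mean of the 6 control livers, with the value printed in each cell and colours that end at 2 in either direction. The 3 anti-CD40 columns are below 0 in all 10 genes, control mouse 8 is above 0 in all 10, and control mouse 4 is low in Acacb (-1.0) but high in Acly and Scd1.

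Markers of other cell types moved with treatment. The 12 hepatocyte markers tested were lower in 10 cases and higher in 1, Apob, with Hnf4a not called. Their summed level was 13416 to 16282 FPKM in treated and 39833 to 67908 in control livers, their median log2 fold change was -1.10, and Alb, which encodes albumin, was at -2.43. All 8 leukocyte markers were higher, with a summed level of 1110 to 1612 against 154 to 249, as were 7 of the 9 tested myeloid markers, with 4429 to 5473 against 63.0 to 227, most of it from S100a8 and S100a9 in the treated livers. Adgre1, which encodes the macrophage marker F4/80, was lower instead, at -1.49 (limma adjusted p = 0.00209), and Csf1r was at -0.62 (limma adjusted p = 0.0837). Fewer hepatocytes and less lipogenic RNA in each hepatocyte cannot be told apart in bulk tissue, and the part of cell composition in these falls was not tested. Log2 fold changes of the hepatocyte markers ran from that of Alb to 0.74 for Apob. Apoa2 was at -2.18 and Apoc3 at -2.14, whereas Fah was at -1.21, Cps1 at -0.94, and Hnf4a at -0.44. The marker median of -1.10 stood beside -1.55 for the lipogenic genes. Only Thrsp and Scd1 among the 10 were lower than Alb, and none of these differences was tested. Control mice 4 and 7 also carried fat cell transcripts, with Adipoq at 26.3 and 35.0 FPKM and at most 3.09 in the other mice. Of the 7 fat cell markers tested, 1 was lower (Adrb3). The summed level of the fat cell list was 382 to 552 FPKM in treated and 82.3 to 1178 in control livers. Most of the sum in treated livers came from Fabp4, at 375 to 542 FPKM, whereas Adipoq was at 0.552 to 1.06 there. Fat cells express lipogenic genes too. Control mice 4 and 7 were left out in a setting chosen after the data were seen. All 10 lipogenic genes kept their call there, with log2 fold changes from -5.25 for Thrsp to -0.81 for Elovl5. Over the 10 genes, however, mice 4 and 7 had the lowest averages of the controls, at -0.34 and -0.23. Their omission raises the control average, so the setting favours these calls, and the part of fat cells was not tested. Anti-CD40 mouse 5 carried pancreatic transcripts, with Cela3b at 223 FPKM and at most 0.597 in the other mice. Of the 9 pancreatic markers tested, 1 was higher (Cpb1), the summed level was 27.9 to 1058 against 70.5 to 190, and Amy2a5 was at the floor in all mice. Most of the sum in the controls came from Cela1, at 69.3 to 188 FPKM. Without mouse 5, 9 of the 10 genes kept the call and Elovl5 did not (limma adjusted p = 0.124).

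For the lists of related genes, the shares of 21.7% lower and 23.5% higher over all genes are the background. Of 25 regulators of lipogenesis, 13 were lower (52%), 2 higher (8%), and 10 not called, with a median log2 fold change of -0.57. The list holds drivers such as Srebf1 and restraints such as Insig1, so these counts give no net direction of regulation. Srebf1, which encodes SREBP-1, was at 2.18, 2.65, and 2.35 FPKM in treated mice 2, 5, and 9, and the controls lay between 9.05 and 20.4 with a median of 16.0. The log2 fold change of Srebf1 was -2.54 (SE 0.26, limma adjusted p = 2.64e-05). The table does not separate its isoforms. Among the controls, Srebf1 was lowest in mouse 8, the liver in which 9 of the 10 lipogenic genes were highest. Mlxipl, which encodes ChREBP, was at 11.0, 9.99, and 10.9 in the treated livers and between 28.0 and 39.4 in the controls, a log2 fold change of -1.60 (limma adjusted p = 6.08e-06). Insig1, a target of SREBP that holds SREBP in the endoplasmic reticulum, fell from a control mean of 22.8 ± 2.38 (SD, n = 6) to 4.34 ± 0.400 after treatment (SD, n = 3), with a log2 fold change of -2.37. Insig2, a related retention protein, had a log2 fold change of 0.013 (limma adjusted p = 0.970), a sign that changed under other settings. Nr1h3, which encodes LXRα, fell by 0.73 on the log2 scale, and Pparg had a value of 0.016 (limma adjusted p = 0.979), again with a sign that changed under other settings. The 2 genes called higher were Prkaa1, a catalytic subunit of AMP-activated protein kinase, at 0.55, and Mbtps2, a protease that releases SREBP, at 0.49, and without anti-CD40 mouse 2 both lost the call (limma adjusted p = 0.0642 and 0.172). Mbtps2 also lost it without anti-CD40 mouse 9 or control mouse 3, 8, or 12 (limma adjusted p 0.0501 to 0.0807). Prkaa2, the other catalytic subunit of the kinase, was lower, at -0.57 (limma adjusted p = 0.00964).

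Of the 17 genes that supply citrate, acetyl-CoA, and NADPH, 11 were lower (64.7%), 4 higher (23.5%, the share over all genes), and 2 not called, with a median of -0.96. Acss2, which makes acetyl-CoA from acetate, fell from a control mean of 23.0 ± 8.92 (SD, n = 6) to 3.65 ± 1.04 after treatment (SD, n = 3), with a log2 fold change of -2.59 (limma adjusted p = 5.64e-05). Khk, which encodes the fructose kinase ketohexokinase, was at -2.35, Slc25a1, the mitochondrial citrate carrier, at -1.79, and Pklr, the liver pyruvate kinase, at -0.96. In Pklr the groups overlapped, and without anti-CD40 mouse 2, 5, or 9 or control mouse 3 or 12 its call was lost (adjusted p 0.0535 to 0.0951 from limma). Sources of NADPH did not all move one way. G6pdx, the first enzyme of the pentose phosphate pathway, rose from a control mean of 0.552 ± 0.161 (SD, n = 6) to 1.97 ± 0.178 after treatment (SD, n = 3), with a log2 fold change of 1.70 (limma adjusted p = 1.47e-04), and Pgd, a later one that also yields NADPH, rose by 0.75. Idh1, the cytosolic isocitrate dehydrogenase that yields NADPH, was lower, at -1.21 (limma adjusted p = 2.14e-05). Of the pentose phosphate enzymes that do not yield it, Tkt was lower, at -0.72 (limma adjusted p = 0.0186), and Taldo1 was at -0.14 (limma adjusted p = 0.514). Me2, the malic enzyme of mitochondria and so not a cytosolic source, rose by 1.66, where Me1 fell by 1.78.

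Of the 16 tested genes of elongation and desaturation outside the 10, 6 were lower (37.5%), 1 higher (6.25%), and 9 not called, with a median of -0.47. Fads1 and Fads2, the desaturases of polyunsaturated fatty acids, fell by 1.92 and 1.91 on the log2 scale (adjusted p = 4.52e-05 and 0.00114 from limma). Elovl7 rose from a control mean of 0.0900 ± 0.0227 (SD, n = 6) to 2.11 ± 0.416 after treatment (SD, n = 3), with a log2 fold change of 3.53 (limma adjusted p = 6.66e-07). Its control level is near the pseudocount. Scd2, the desaturase isoform found more widely outside liver, was at 2.99, 2.51, and 2.72 in the treated livers and between 0.391 and 3.33 in the controls, a log2 fold change of 1.11 (limma adjusted p = 0.0963). The log2 ratio of Scd1 to Scd2 was 3.90 ± 0.498 (SD, n = 3) after anti-CD40 and 8.56 ± 1.02 (SD, n = 6) in controls, without overlap (exact permutation p = 0.0238, adjusted p = 0.0387). Scd2 was highest among the controls in mouse 4, and without mice 4 and 7 its log2 fold change was 1.59 (limma adjusted p = 0.00717). Elovl2 was at -0.42, a sign that changed with quantile normalization, and Elovl3 at -2.48 (adjusted p = 0.129 and 0.119 from limma), and without control mice 4 and 7 Elovl3 was at -3.49 (adjusted p = 0.00567).

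Of the 17 tested genes of glycerolipid and triglyceride synthesis, 8 were lower (47.1%), 4 higher (23.5%, the share over all genes), and 5 not called, with a median of -0.34. Dgat2, one of the enzymes for the last step of triglyceride synthesis, had a log2 fold change of -0.97 with overlapping groups (limma adjusted p = 0.0135), and Dgat1, the other, was at -0.69 (adjusted p = 0.00707). With the serum amyloid genes removed and the rest rescaled, both lost the call (limma adjusted p = 0.0602 and 0.102), and Dgat2 also lost it with no filter (0.0509) and with quantile normalization (0.0513). The largest falls without overlap were those of Mogat1 at -2.15 and Gpat2 at -1.58, both low in every mouse, and the largest rises those of Agpat4 at 1.25 and Agpat1 at 1.11. Lpin1, a phosphatidate phosphatase, was at -0.33 (limma adjusted p = 0.791), with a sign that changed under other settings. Of the 16 tested lipid droplet genes, 4 were lower (25%), 4 higher (25%), and 8 not called, with a median of -0.082, so their shares were near those over all genes. Plin2, the main droplet coat protein of liver, rose from a control mean of 292 ± 95.7 (SD, n = 6) to 693 ± 98.7 after treatment (SD, n = 3), with a log2 fold change of 1.29 (limma adjusted p = 0.00140), and Hilpda, an inhibitor of the lipase ATGL, rose by 1.56. Fitm1, which takes part in droplet formation, fell by 2.83, and Abhd5, the activator of ATGL, by 0.70. Pnpla3 was below the level required for the test.

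**Figure D5:**
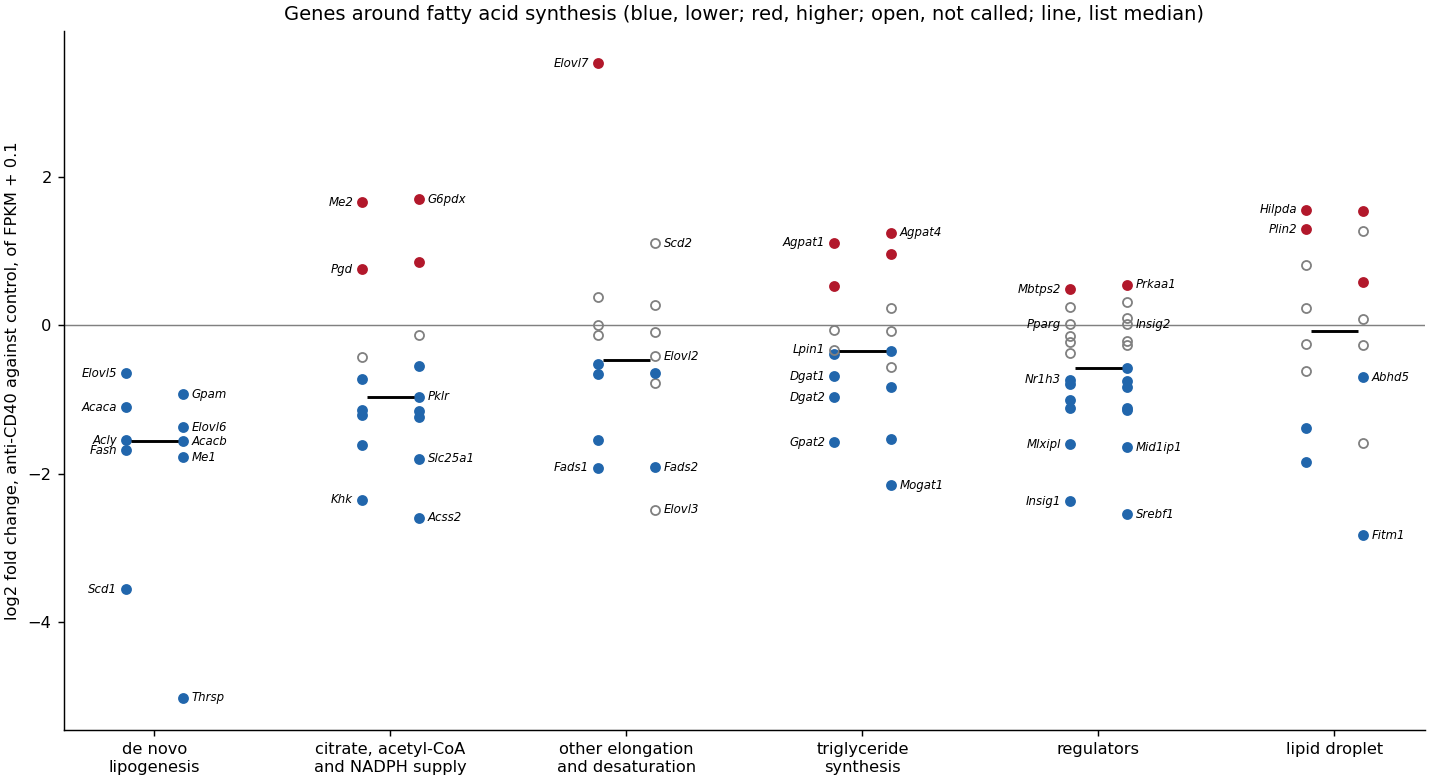
Log2 fold change on the FPKM + 0.1 scale for the 10 genes and 5 lists of related genes, 1 point per tested gene (blue, lower; red, higher; open, not called at an adjusted p of 0.05) with the list median as a line. All 10 points of the first column are blue, whereas each other list holds points of both colours, and the medians run from -1.55 for the 10 genes to -0.082 for the lipid droplet list.

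Outside these lists, the genes whose levels followed the mean of the 10 lipogenic genes most closely from mouse to mouse, after each group was centred on its own mean, were Hmgcs1, Fdft1, Sdf4, Msmo1, and Cyc1. Pearson's r over the 9 mice was 0.974, 0.971, 0.971, 0.970, and 0.958, and Spearman's rho 0.817, 0.900, 0.900, 0.983, and 0.867, given as a description of genes picked for it. Without control mice 4 and 8, the farthest from the median, r was 0.808, 0.901, 0.815, 0.899, and 0.760. The 10 lipogenic genes, each a part of that mean, did not all follow it. Their r ran from 0.364 for Acly to 0.938 for Acaca, with Scd1 at 0.427 and Elovl5 at 0.478. Without control mice 4 and 8 it ran from -0.122 for Elovl6 to 0.916 for Acaca. Hmgcs1, Fdft1, and Msmo1 encode enzymes of cholesterol synthesis, Cyc1 a subunit of respiratory complex III, and Sdf4 a calcium-binding protein of the Golgi. Between the groups they had log2 fold changes of -1.26, -1.59, -0.16, -1.32, and -1.43 in the order Hmgcs1, Fdft1, Sdf4, Msmo1, and Cyc1, and Sdf4 was not called (limma adjusted p = 0.276) and changed sign under other scalings.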

How the data were processed

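RNA from 9 mouse livers was made into 3′ libraries (QuantSeq FWD) by the authors and sequenced on a NextSeq 500. The authors aligned reads to mm10 with STAR in BaseSpace and ran Cufflinks and CuffDiff, per the labels, and deposited FPKM values for 24341 genes with a floor of 0.01. The annotation and the read totals are not given in the sources used here, so precision from depth is unknown and the spread between mice is the only error. No FPKM column was left without a sample. The 15 genes with a failed estimate (Acsl1 among them) were left out.

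Mice were grouped by their labels. Positions are those of the table, counted from 1. Log2(FPKM + 0.1) was fitted with limma 3.58.1 (lmFit, eBayes with a trend) in R 4.3.3 for the 13807 genes with a mean of at least 0.1 FPKM, treatment being the only term, 2-sided, with Benjamini-Hochberg adjustment over all genes tested. The code was tested on simulated data. Because the files hold FPKM and not counts, no count test was made. Ratios and single genes were tested with the exact permutation test. Python 3.11.15, numpy 2.4.6, pandas 2.3.3, scipy 1.17.1, and matplotlib 3.10.9 were used for the rest, and promoter windows came from RefSeq (GRCm38.p6). The members and all lists (supply, elongation, triglyceride, regulators, lipid droplet, and cell type markers) were chosen with earlier results of these data known. Gpat3 and Gpat4 stand in the table as Agpat9 and Agpat6, and Ly6g was not matched. None of the 6 tested erythroid markers was called, and Hba-a1 was at the floor in all mice.

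The genes named were the 10 members, a fixed set from the lists (Srebf1, Mlxipl, Nr1h3, Insig1, Insig2, Mid1ip1, Pparg, Scd2, Fads1, Fads2, Elovl2, Elovl3, Dgat1, Dgat2, Lpin1, Pklr, G6pdx, Pgd, Acss2, Slc25a1, Plin2, Pnpla3, and 1 gene that is not reported here), up to 2 largest falls and 2 largest rises per list among called genes without overlap, and the 5 genes most like the members. Marker genes, Prkaa2, Idh1, Tkt, and Taldo1 were named after their values were seen. Other settings tried were a pseudocount of 1 or 0.01, a filter at a mean FPKM of 1 or none, quantile and median of ratios scaling, omission of the serum amyloid genes with rescaling, eBayes without a trend or robust, array weights, an adjusted p under 0.01, a fold change of at least 2, and omission of each mouse.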

Additional observations from a re-analysis of the deposited data

Results flagged for a closer look

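Among the 6 control mice, the distance of an extreme mouse to its neighbour was divided by the range on the log2 scale for each of 50 results. It passed Dixon's critical value in 6 of them, where chance gives about 2.5 (1 in 20). Fasn was flagged at 0.685, since control mouse 8 had an FPKM of 82.5 and the next 40.5. The same mouse was the highest in Cyc1 (0.795, 144 against 114 FPKM) and the lowest in Mbtps2 (0.747, 0.663 against 0.900 FPKM). Control mouse 11 was the lowest in Mid1ip1 (0.774, 13.0 against 24.6 FPKM) and the highest in Abhd5 (0.644, 13.7 against 11.2 FPKM). Control mouse 4, which also carried fat cell transcripts, was the lowest in Fitm1 (0.703, 5.97 against 20.2 FPKM). Without control mouse 8 the log2 fold change of Fasn was -1.47, and it remained called. What sets these mice apart was not tested.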

How the results depend on the processing

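No paired analysis was possible because the groups share no mouse number. Fasn, Acaca, Acacb, Acly, Scd1, Elovl6, Me1, and Thrsp kept their direction and call under all 22 other settings. Gpam did so in 20 of 21, being short of a 2-fold change at -0.93, and it was too low to be tested at a mean FPKM of at least 1. Elovl5 remained negative but lost its call at -0.65 with no filter (adjusted p = 0.125), without the trend (adjusted p = 0.0581), and at the stricter thresholds, at -0.20 with quantile normalization (adjusted p = 0.449), and at -0.28 with the serum amyloid genes omitted (adjusted p = 0.307). With each mouse omitted in turn it was at -0.78 to -0.54 (adjusted p 0.0223 to 0.170). The cause was not tested. Of all genes, 6230 were called, 3142 of them at least 2-fold changed, and 4814 to 6830 with a mouse omitted. The share higher was 52.0%, and it was 46.4% with quantile normalization, 44.7% at a mean FPKM of at least 1, 60.1% at 2-fold, and 77.4% (5633 against 1647 lower) with the serum amyloid genes omitted. For elongation the 1 gene higher became 2 with quantile normalization, array weights, or control mice 4 and 7 omitted (a setting added after the data were seen), 4 with the serum amyloid genes omitted, 0 at a mean FPKM of at least 1, and 1 to 2 with a mouse omitted, and the 6 lower became 3 at 2-fold. For regulators the 2 higher became 1 without a filter or at a mean FPKM of 1, 0 with quantile normalization, an adjusted p under 0.01, or 2-fold, and 0 to 2 with a mouse omitted, and the 13 lower became 8 at 2-fold. For supply the 4 higher became 2 at 2-fold, and the 11 lower became 7 with the serum amyloid genes omitted. For triglyceride synthesis the 4 higher became 2 at either stricter threshold, and the 8 lower became 5 with quantile normalization or an adjusted p under 0.01, 4 with the serum amyloid genes omitted, and 3 at 2-fold. Signs changed in genes that were not called. Elovl2 was at 0.049 with quantile normalization. Insig2 was at -0.049 with array weights, -0.24 without control mice 4 and 7, and -0.088 to 0.17 with a mouse omitted. Lpin1 was at 0.038 with the serum amyloid genes omitted and -0.87 to 0.14 with a mouse omitted. Pparg was at -0.025 with a pseudocount of 1, -0.28 with quantile normalization, -0.099 with array weights, and -0.23 to 0.19 with a mouse omitted. Sdf4 was at 0.045 with quantile normalization and 0.20 with the serum amyloid genes omitted.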
